A study of Mus musculus with 9 samples.

Results

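The genes described here supply cholesterol to the spinal cord and sense its level. They were chosen by name as sterol-regulated genes: Hmgcs1, Idi1, Fdft1, Sqle, Lss and Dhcr7, which encode enzymes of cholesterol synthesis, and Insig1, which encodes a protein that holds the pathway in check. Rows were found by Ensembl gene ID for 6 of the 7 genes, among 14831 genes in the authors' table, and all 6 were tested. No row matched the ID of Hmgcs1, which is not analysed here. The name of the set also covers uptake, but no receptor is among the 6, so the uptake genes are described from a separate list.

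Brain and spinal cord make nearly all of their own cholesterol, because lipoproteins do not cross the blood-brain barrier, and myelin holds most of it. Synthesis starts from acetyl-CoA and passes through mevalonate, squalene and lanosterol. When sterols in the membrane of the endoplasmic reticulum fall, the escort protein Scap carries the transcription factors Srebf1 and Srebf2 to the Golgi, where they are cut and freed to raise the genes of synthesis and uptake. When sterols are plentiful, Insig1 and Insig2 keep Scap in place. Insig1 is itself a target of these factors.

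Spinal cord RNA was measured in 9 strand-specific libraries from female wild-type C57Bl/6 mice of 10 weeks. Each mouse had received 10 µl in the right lateral ventricle, a fluid space of the brain, and tissue was taken 2 weeks after that. An antisense oligonucleotide (ASO) is a short modified nucleic acid that pairs with a chosen RNA. The groups were 3 libraries after 500 µg of an ASO against mouse C9orf72 (number 571883), 3 after 500 µg of a control ASO (number 456835) and 3 after saline. The design asks what follows when C9orf72 function is lost, and the mice are normal animals that carry no repeat expansion. Levels are RPKM, read numbers divided by transcript length and library depth, and can be compared between genes. Whether replicates came from separate animals is not stated in the labels, so p-values measure the spread between these libraries, which may be technical.

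C9orf72, the target, had 2.68, 3.40 and 3.12 RPKM after its ASO, 11.2, 11.7 and 10.6 after the control ASO and 10.5, 11.4 and 11.5 after saline. It stood at 27.5% ± 3.22 of the control ASO mean and 27.6% ± 3.23 of the saline mean in the C9orf72 ASO libraries (SD, n = 3), and its fall relative to the control ASO, a log2 fold change of -1.84, passed the test (SE 0.08, adjusted p = 1.8e-06 by limma). The steps between low values put the depth at 90.4 M to 123.9 M reads per library. At that depth each member value rested on an estimated 960 to 9915 reads per kilobase of transcript. The markers went with the tissue label: all 10 Hox genes listed for the spinal cord were above the lowest reported level in each library, while 5 of 6 forebrain genes had no row and the other, Neurod6, averaged under the level of each of the 6 sterol genes. The oligodendrocyte list, 13 genes of the cells that make myelin, summed to 6447 to 7320 RPKM after the C9orf72 ASO, 6821 to 7135 after the control ASO and 6949 to 8106 after saline.

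The promoters shown are those of Insig1 and Idi1, the genes that set the ends of the differences described further on: of the 6, Insig1 was the lowest against the control ASO and Idi1 the highest against saline. Each window runs from 250 bases before to 50 after the start site in RefSeq (GRCm38.p6, plus strand), Insig1 at chr5:28071162-28071461 and Idi1 at chr13:8885356-8885655. The submitters' processing notes name mm9, another build, and the table itself gives no coordinates used here. Capitals mark CCAAT, the letters bound by NF-Y, and GGGCGG, those bound by Sp1, on either strand; both factors act beside SREBP at sterol genes.
Insig1: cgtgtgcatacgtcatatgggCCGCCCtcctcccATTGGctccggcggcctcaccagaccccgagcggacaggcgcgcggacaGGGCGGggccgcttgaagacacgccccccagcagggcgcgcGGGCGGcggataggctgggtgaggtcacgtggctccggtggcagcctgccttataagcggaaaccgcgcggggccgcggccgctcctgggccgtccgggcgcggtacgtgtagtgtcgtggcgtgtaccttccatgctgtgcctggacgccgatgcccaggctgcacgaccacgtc
Idi1: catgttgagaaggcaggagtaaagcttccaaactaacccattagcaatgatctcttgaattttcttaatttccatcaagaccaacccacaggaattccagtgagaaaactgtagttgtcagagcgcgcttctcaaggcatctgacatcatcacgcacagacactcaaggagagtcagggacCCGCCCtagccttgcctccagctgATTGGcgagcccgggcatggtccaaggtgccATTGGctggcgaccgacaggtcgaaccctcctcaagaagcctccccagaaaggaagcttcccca
The Insig1 window holds 1 CCAAT and 3 GGGCGG, the Idi1 window 2 CCAAT and 1 GGGCGG, and no match overlaps another. Windows were matched by symbol for Idi1, Lss, Dhcr7 and Insig1 among the 6 genes, and each of these 4 genes had both motifs in at least 1 window. Counted by window, 4 of the 6 windows of these genes held CCAAT and 5 held GGGCGG. Over all 32851 promoter windows the shares were 37.4% for CCAAT and 35.7% for GGGCGG. The letters TCACNCCAC, a form of the SREBP site, were searched on both strands as well. They were in none of the windows of these 4 genes, in 1.24% of all windows, and once in the window of Hmgcs1, 137 to 129 bases before its start. A window without these letters says nothing of whether SREBP acts there.

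All 6 genes were well expressed, and their order was nearly fixed from library to library. Idi1, the isomerase that makes dimethylallyl diphosphate, averaged 79.2 RPKM over the 9 libraries, above 95.4% of the genes in the table. Insig1 averaged 69.5 RPKM, Fdft1, the squalene synthase, 44.6 RPKM, and Sqle, the epoxidase that opens the oxygen-dependent part of the pathway, 39.7 RPKM. Dhcr7, which takes the last step to cholesterol, averaged 16.8 RPKM and Lss, the cyclase that makes lanosterol, 10.7 RPKM. Idi1 was above Insig1 in 8 of 9 libraries, with ranges that overlapped (75.3 to 84.4 against 63.1 to 81.2 RPKM). Fdft1 was above Sqle in 9 of 9 libraries although their ranges met (41.2 to 47.9 against 36.7 to 43.7 RPKM). The other neighbours in this order had ranges that did not overlap.

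**Figure D1:**
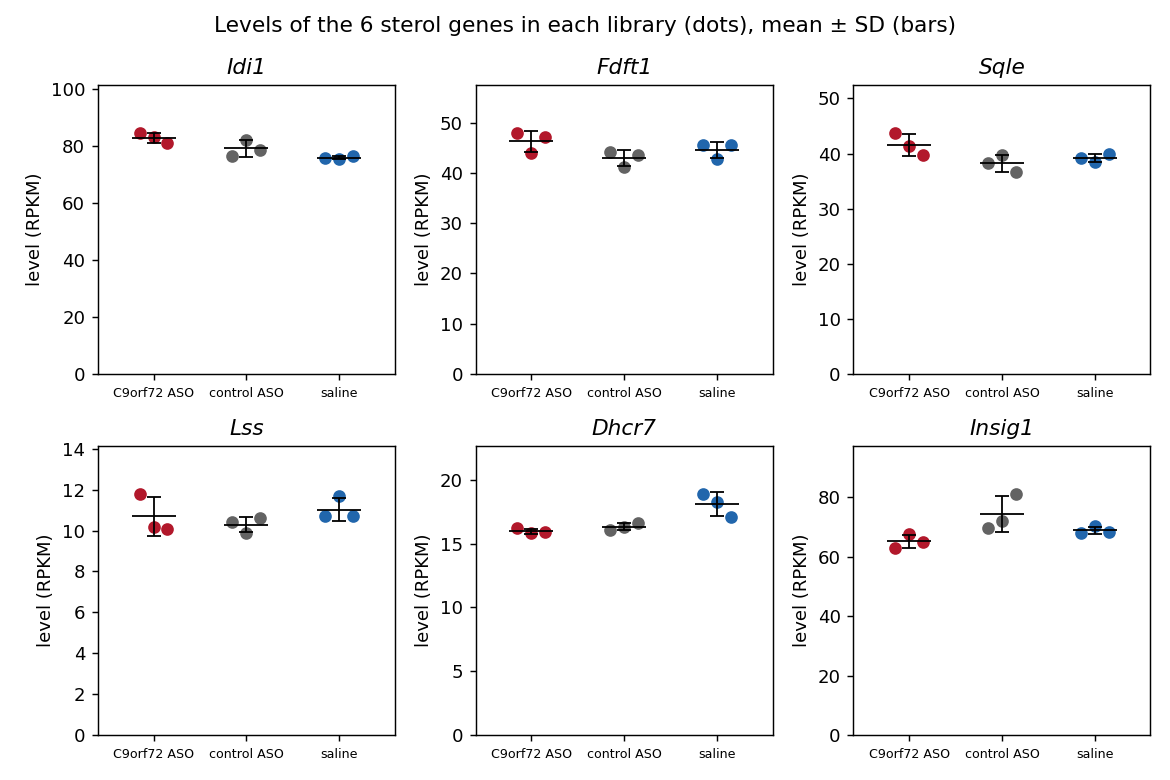
Level in RPKM of each of the 6 sterol genes in each library (dots), with the mean and SD of each group of 3 (bars); panels have their own linear axes from 0. Insig1 has its 3 lowest libraries after the C9orf72 ASO (63.1 to 67.6 RPKM) and Dhcr7 its 3 highest after saline (17.1 to 18.9 RPKM).

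The question for these genes was whether lowering C9orf72 moved the sterol pathway apart from the injection of an oligonucleotide, which is asked by C9orf72 ASO against control ASO. None of the 6 rose or fell past the threshold, a Benjamini-Hochberg adjusted p under 0.05 in limma over 14430 genes, where 10 genes (0.0693%) passed, 0.0347% higher and 0.0347% lower. At an unadjusted p under 0.05 there was 1 of the 6, Insig1, lower, beside 14.1% of all genes (6.39% higher and 7.71% lower). Differences were small: log2 fold changes of log2(RPKM + 0.1) ran from -0.19 to 0.12, with standard errors of 0.05 to 0.07. The 95% intervals of the 6 lay within 0.795-fold and 1.19-fold, a fold of 1 being no difference. The median log2 fold change of the 6 was 0.06, with 4 positive and 2 negative, beside -0.01 over all genes.

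The enzymes before squalene were close between the ASO groups. Idi1 stood at 84.4, 83.1 and 80.9 RPKM after the C9orf72 ASO, at 76.4, 82.1 and 78.6 after the control ASO and at 75.8, 75.3 and 76.3 after saline. The C9orf72 ASO libraries lay above the saline libraries and overlapped those of the control ASO. Its log2 fold change against the control ASO was 0.07 (SE 0.05, adjusted p = 0.577, limma). Fdft1 stood at 47.9, 43.9 and 47.1 RPKM after the C9orf72 ASO, at 44.2, 41.2 and 43.5 after the control ASO and at 45.5, 42.8 and 45.6 after saline. All 3 groups overlapped, and the log2 fold change against the control ASO was 0.11 (SE 0.06, adjusted p = 0.431).

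Sqle, a step that limits flux after squalene, stood at 43.7, 41.3 and 39.8 RPKM after the C9orf72 ASO, at 38.2, 39.8 and 36.7 after the control ASO and at 39.2, 38.4 and 39.9 after saline. The lowest C9orf72 ASO library met the highest of each other group. Its log2 fold change of 0.12 against the control ASO (95% interval to 0.25, unadjusted p = 0.0583, adjusted p = 0.370, limma) was the highest of the 6. Lss stood at 11.8, 10.2 and 10.1 RPKM after the C9orf72 ASO, at 10.4, 9.89 and 10.6 after the control ASO and at 10.7, 11.7 and 10.7 after saline. A single C9orf72 ASO library, replicate 1, lay above the control ASO range. The log2 fold change was 0.05 (SE 0.07, adjusted p = 0.796) and -0.03 without that library.

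Dhcr7 had its highest levels after saline. It measured 16.2, 15.8 and 15.9 RPKM after the C9orf72 ASO, 16.1, 16.3 and 16.6 after the control ASO and 18.9, 18.3 and 17.1 after saline. Libraries of both ASO groups lay below those of saline, and the ASO groups overlapped. Against saline the log2 fold change was -0.18 after the C9orf72 ASO (SE 0.05, unadjusted p = 0.00616, adjusted p = 0.222, limma) and -0.14 after the control ASO (SE 0.05, unadjusted p = 0.0211, adjusted p = 0.794, limma). These 2 comparisons share the saline libraries. Against the control ASO it was -0.04 (SE 0.05, adjusted p = 0.779).

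Insig1, the sterol sensor's anchor, stood at 63.1, 67.6 and 65.0 RPKM after the C9orf72 ASO, at 69.7, 72.2 and 81.2 after the control ASO and at 68.0, 70.3 and 68.3 after saline. Each C9orf72 ASO library was below the 6 others, the closest being 67.6 RPKM after the C9orf72 ASO and 68.0 RPKM after saline. Groups that did not overlap were common, at 22.0% of genes against the control ASO (10.1% higher and 11.8% lower), 18.0% against saline (5.61% higher and 12.4% lower) and 7.87% against both (2.82% higher and 5.05% lower). The log2 fold change against the control ASO was -0.19 (SE 0.07, 95% interval -0.33 to -0.04, unadjusted p = 0.0162, adjusted p = 0.277, limma). The difference was -0.12 (adjusted p = 0.637) without control ASO replicate 3, the library at 81.2 RPKM, and -0.08 against saline (SE 0.07, adjusted p = 0.635).

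The C9orf72 ASO was also compared with saline, where the loss of C9orf72 and the injection of an oligonucleotide cannot be told apart. Here 0 of the 6 genes passed in limma, where 10 genes (0.0693%) of all tested did. At an unadjusted p under 0.05 Idi1 was higher (log2 fold change 0.13, SE 0.05, adjusted p = 0.324) and Dhcr7 lower, beside 14.0% of all genes (3.79% higher and 10.2% lower). Groups did not overlap for Idi1, higher, and for Dhcr7 and Insig1, lower, beside 18.0% of all genes (5.61% higher and 12.4% lower). Intervals of the 6 lay within 0.814-fold and 1.18-fold. For control ASO against saline, which asks what an oligonucleotide does without lowering C9orf72, 0 of the 6 passed in limma, against 1 gene (0.00693%) of all, and 1 of the 6, Dhcr7, was at an unadjusted p under 0.05, as were 5.35% of all genes (1.37% higher and 3.98% lower). Here the libraries did not overlap for Idi1, higher, and for Dhcr7 and Lss, lower, beside 10.3% of all genes (3.16% higher and 7.15% lower). With both control groups as the reference, 0 of 6 passed, against 0.173% of all genes (0.0762% higher and 0.0970% lower), and Insig1 (-0.13, SE 0.06, adjusted p = 0.274) and Dhcr7 (-0.11, SE 0.05, adjusted p = 0.273) had an unadjusted p under 0.05, as had 16.7% of all genes (5.87% higher and 10.9% lower).

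**Figure D2:**
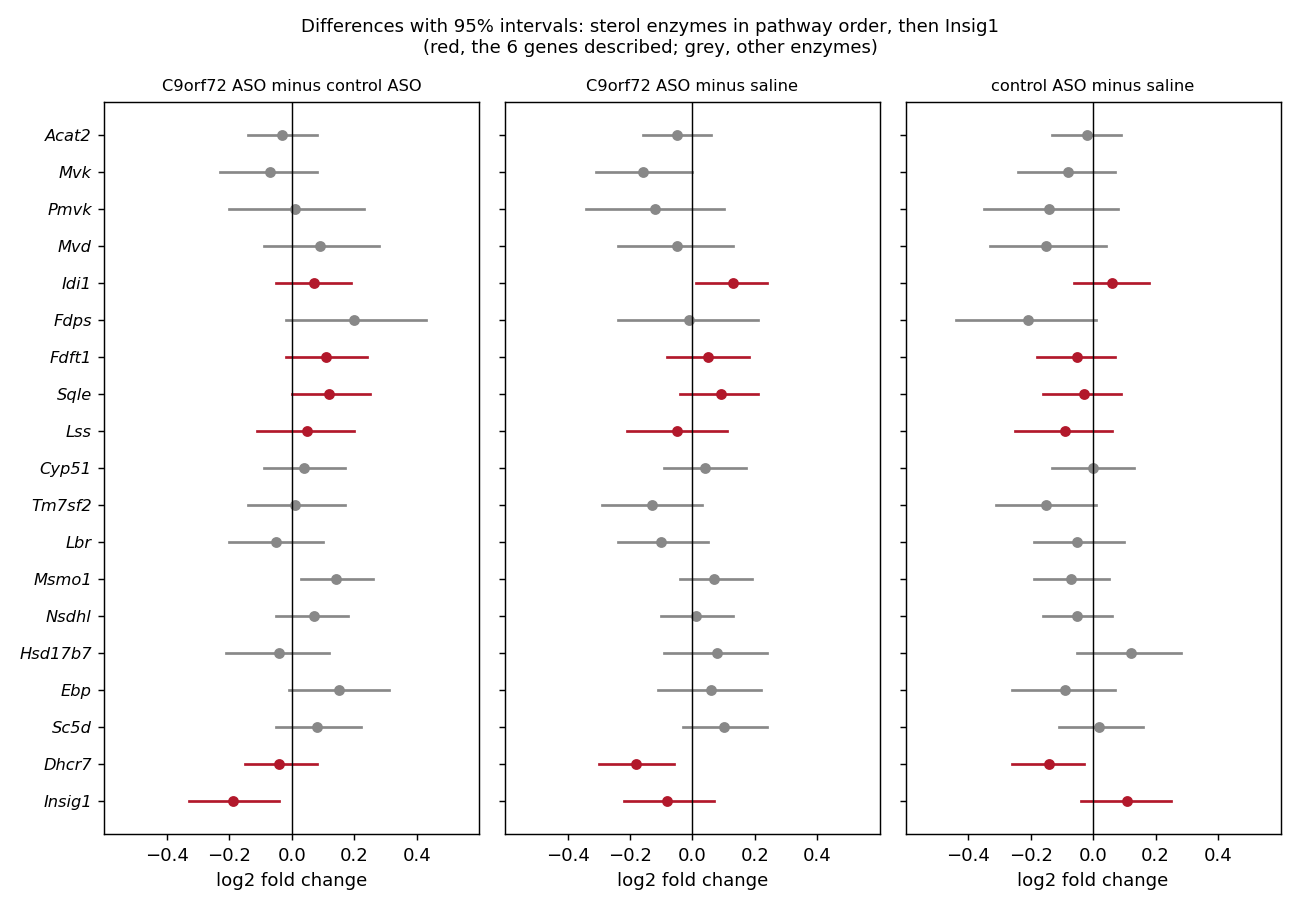
Log2 fold change (dots) with its 95% interval (lines) for 18 sterol enzymes in pathway order, then Insig1, in 3 comparisons; red marks the 6 genes described and grey the other enzymes. Without adjustment over genes, 0 is outside the intervals of Insig1 (-0.33 to -0.04) and Msmo1 (0.03 to 0.26) against the control ASO, of Dhcr7 (-0.30 to -0.06), Idi1 (0.01 to 0.24) and Mvk against saline, and of Dhcr7 for control ASO against saline (-0.26 to -0.03).

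No other enzyme of the pathway passed. Of 21 listed sterol enzymes 20 had a row, and 0 passed in limma in any comparison. At an unadjusted p under 0.05 there were 2 against the control ASO (Msmo1, higher, among them), beside 14.1% of all genes. There were 4 against saline (14.0% of all genes), 3 against both control groups (16.7%) and 1 for control ASO against saline (5.35%). Against the control ASO 14 were higher and 6 lower, with a median log2 fold change of 0.04 beside -0.01 for all genes. Against saline 10 were higher and 10 lower, with a median of 0.00 beside -0.03. Msmo1, the methyl sterol oxidase, had 52.4, 49.8 and 49.6 RPKM after the C9orf72 ASO, above 45.3, 47.4 and 44.6 after the control ASO and 48.4, 46.7 and 49.0 after saline. Of all genes, 2.82% likewise had each C9orf72 ASO library above the 6 others. The log2 fold change of Msmo1 against the control ASO was 0.14 (SE 0.05, unadjusted p = 0.0204, adjusted p = 0.287, limma).

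Fdps, which makes farnesyl diphosphate, had a log2 fold change of 0.20 with the control ASO as reference (SE 0.10, adjusted p = 0.398) and of -0.01 with saline (SE 0.10). Its control ASO replicate 3 was at 35.4 RPKM, against 44.5 and 44.1 in the other control ASO libraries.

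Log2 fold changes against the control ASO were between -0.07 and 0.15 for 11 further enzymes. Before farnesyl diphosphate, they were -0.03 for Acat2 (SE 0.05), -0.07 for Mvk (SE 0.07), 0.01 for Pmvk (SE 0.10) and 0.09 for Mvd (SE 0.08). After lanosterol, they were 0.04 for Cyp51 (SE 0.06), 0.01 for Tm7sf2 (SE 0.07), -0.05 for Lbr (SE 0.07) and 0.07 for Nsdhl (SE 0.05). The last were -0.04 for Hsd17b7 (SE 0.08), 0.15 for Ebp (SE 0.07) and 0.08 for Sc5d (SE 0.06). Each interval of these 11 spanned 0.

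**Figure D3:**
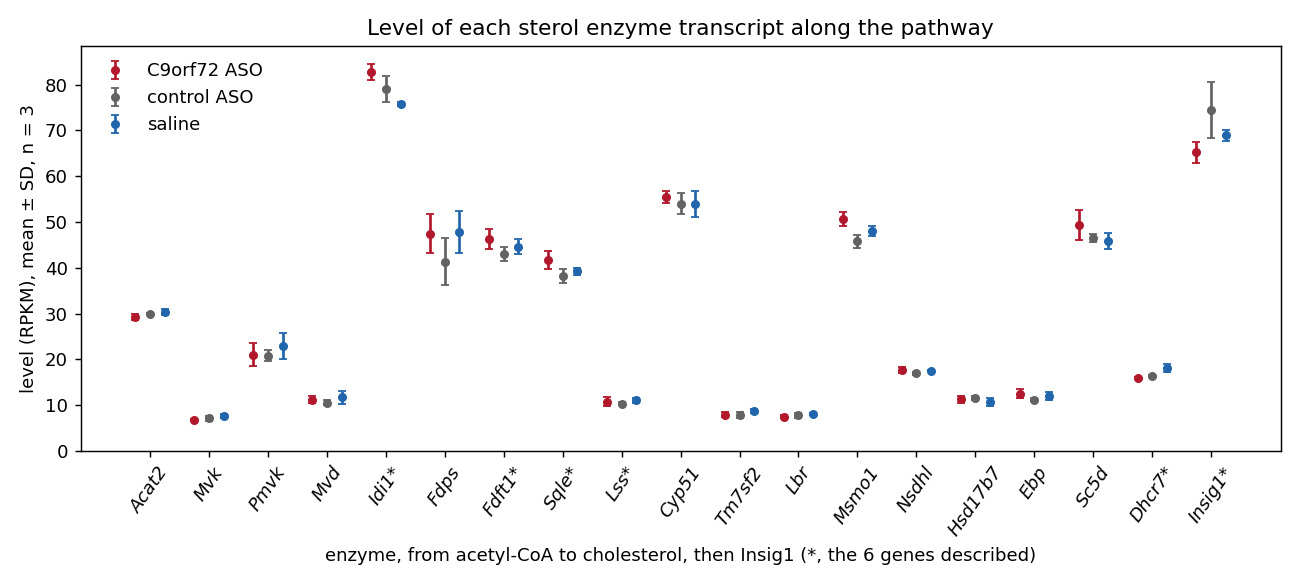
Mean level in RPKM with SD (n = 3) of 18 sterol enzymes in pathway order from acetyl-CoA to cholesterol, then Insig1, after the C9orf72 ASO (red), the control ASO (grey) and saline (blue); asterisks mark the 6 genes described. Levels differ far more between enzymes, from Mvk at 7.15 RPKM to Idi1 at 79.2 RPKM over all libraries, than between groups.

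No gene that senses and switches the pathway passed. All 10 genes listed had a negative log2 fold change against the control ASO, as had 7813 of the 14430 genes tested. The median was -0.05 beside -0.01 for all genes. In limma 0 passed, with 1, Insig1, at an unadjusted p under 0.05, beside 14.1% of all genes. Against saline 7 of the 10 were negative, as were 8472 of all genes, with a median of -0.08 beside -0.03. At an unadjusted p under 0.05 there were 2 of the 10, beside 14.0% of all genes. Log2 fold changes against the control ASO also ran with transcript length across 13970 genes (r = -0.23, a description across genes, which are not independent). The same r was -0.04 for C9orf72 ASO against saline and 0.22 for control ASO against saline. The contribution of length to the values of this list was not tested. Srebf2, the factor that drives most synthesis genes, had a log2 fold change of -0.10 with the control ASO as reference (SE 0.07, adjusted p = 0.529) and -0.16 with saline (SE 0.07, adjusted p = 0.322). Scap, its escort, had -0.08 with the control ASO (SE 0.07, adjusted p = 0.574) and -0.18 with saline (SE 0.07, adjusted p = 0.277). Insig2, the partner of Insig1 that is not driven by sterol loss in the same way, had -0.02 against the control ASO (SE 0.06, adjusted p = 0.875) and averaged 16.0 RPKM, under the 69.5 RPKM of Insig1.

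Srebf1, which drives fatty acid genes, had a log2 fold change of -0.02 against the control ASO (SE 0.10, adjusted p = 0.948). The Golgi proteases that free both factors had -0.05 for Mbtps1 (SE 0.06) and a fold of 0.998 for Mbtps2 (adjusted p = 0.990). Rnf139, a ubiquitin ligase of the endoplasmic reticulum, had -0.04 (SE 0.06). The sterol carrier gene Stard4 had -0.01 (SE 0.10).

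Uptake genes did not pass either. Of 11 listed 10 had a row, and 0 were called in limma against the control ASO or saline. Against the control ASO 2 were higher and 8 lower (median -0.08), where 7813 of the 14430 genes tested were lower. Against saline the numbers were the same (median -0.10), where 8472 of all genes were lower. At an unadjusted p under 0.05 there were 1 and 3 of the 10, beside 14.1% and 14.0% of all genes. Scarb1, a receptor for high-density lipoprotein, had at most 4.32 RPKM after the C9orf72 ASO, at least 4.37 after the control ASO and at least 4.92 after saline. Each C9orf72 ASO library was thus below the 6 others, as for 5.05% of all genes. The log2 fold change of Scarb1 was -0.19 with the control ASO as reference (SE 0.08, adjusted p = 0.322) and -0.34 with saline (SE 0.08, adjusted p = 0.135).

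Other lipoprotein receptors had log2 fold changes against the control ASO of -0.03 for Vldlr (SE 0.07), -0.19 for Lrp1 (SE 0.10) and -0.06 for Lrp8 (SE 0.05). Mylip, a ligase that degrades lipoprotein receptors, had -0.13 (SE 0.09). For export from the lysosome, Npc1 had -0.09 (SE 0.06), Npc2 0.13 (SE 0.08) and the lipase Lipa 0.08 (SE 0.07).

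Across libraries, pairs of the 6 genes differed in the sign of their relation. Of 15 pairs, 7 had a positive Pearson correlation of log2(RPKM + 0.1) over the 9 libraries, the median r was -0.11, and 0 passed after adjustment over the 15 (4 at an unadjusted exact permutation p under 0.05). Sqle and Idi1 had r = 0.71 (exact permutation p = 0.0255, adjusted p = 0.127) and rho = 0.62 (exact permutation p = 0.0857, adjusted p = 0.321). Their r was 0.77 without the 2 libraries farthest from the median of Sqle and 0.73 for deviations from the group means.

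Insig1 had negative correlations with Sqle and Fdft1 that did not pass after adjustment over all 9 libraries. With Sqle r was -0.80 (exact permutation p = 0.0152, adjusted p = 0.127) and rho -0.68 (exact permutation p = 0.0503, adjusted p = 0.252), and r was -0.35 without the 2 farthest libraries, on which the pooled value rested, and -0.60 for deviations from the group means. With Fdft1 r was -0.67 (exact permutation p = 0.0427, adjusted p = 0.160) and rho -0.83 (exact permutation p = 0.00827, adjusted p = 0.124), and r was -0.60 without the 2 farthest and -0.32 for deviations from the group means. Dhcr7 and Idi1 had r = -0.72 (exact permutation p = 0.0247, adjusted p = 0.127) and rho = -0.75 (exact permutation p = 0.0255, adjusted p = 0.191). Their r was -0.58 without the 2 farthest libraries and 0.07 for deviations from the group means. Leaving out 1 library at a time gave 0 to 2 pairs of the 15 that passed. The 2 came without control ASO replicate 3: Sqle with Idi1 (r = 0.82, n = 8, exact permutation p = 0.00218, adjusted p = 0.0164) and Fdft1 with Insig1 (r = -0.93, n = 8, exact permutation p = 0.00114, adjusted p = 0.0164). These p-values were adjusted over the 15 pairs but not over the 9 removals.

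The ratio of Insig1 to each enzyme within a library was chosen after the values were seen. It restates the levels given above and has no test. Insig1 over Idi1 was 0.748, 0.813 and 0.804 after the C9orf72 ASO, 0.912, 0.879 and 1.03 after the control ASO and 0.896, 0.934 and 0.896 after saline. Insig1 over Sqle was 1.44, 1.64 and 1.63 after the C9orf72 ASO, 1.82, 1.81 and 2.21 after the control ASO and 1.74, 1.83 and 1.71 after saline. For both ratios each C9orf72 ASO library lay below the 6 others. For Lss, Fdft1 and Dhcr7 the ratios of the C9orf72 ASO libraries overlapped those of the other 2 groups together.

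**Figure D4:**
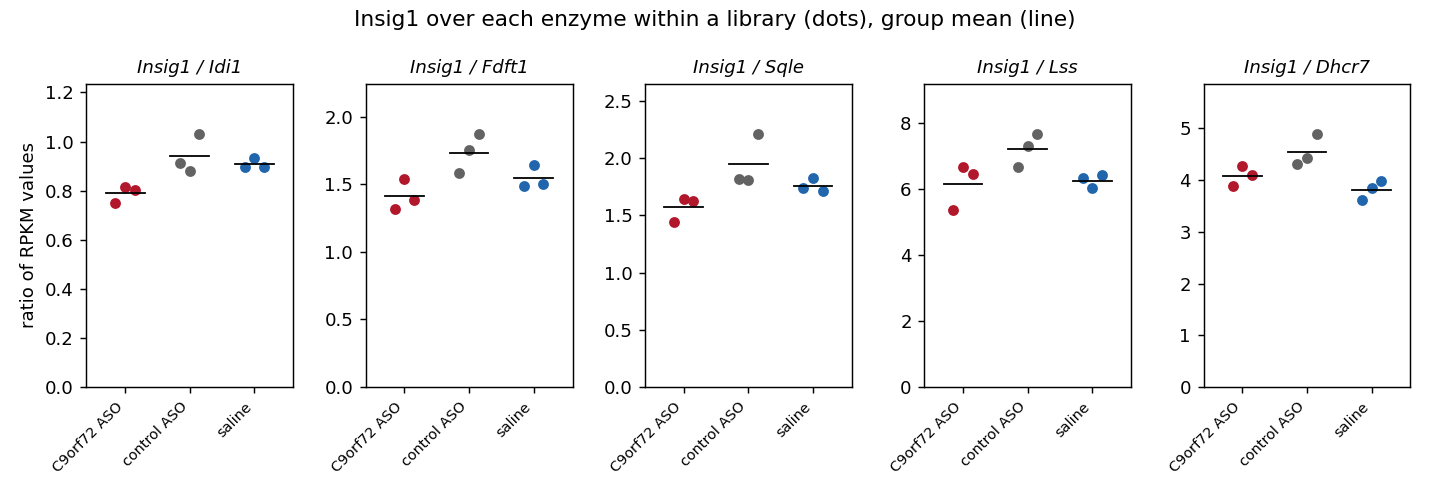
Ratio of the RPKM of Insig1 to that of each enzyme within a library (dots) with the group mean (line), on linear axes from 0, in the 3 groups. Over Idi1 the C9orf72 ASO libraries reach 0.813 at most and the 6 others 0.879 at least, while over Dhcr7 the C9orf72 ASO libraries (3.89 to 4.28) overlap the saline libraries (3.61 to 3.99).

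Except for Lss, the spread between replicates of each of the 6 genes was below that of most genes of like level. The within-group SD on the log2 scale was 0.035 for Idi1, 0.044 for Dhcr7, 0.054 for Sqle and 0.058 for Fdft1, against medians of 0.086 to 0.088 for tested genes within 1.5-fold of each level. Among such genes 3.25% had a smaller SD than Idi1 and 6.74% a smaller one than Dhcr7. Lss, at 0.090 against 0.089, and Insig1, at 0.074 against 0.088, were nearer the middle.

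Gene patterns most like the mean of the 6 over the 9 libraries, by Pearson r among 9146 genes of at least 5 RPKM, were those of Abhd18, Ncapd3, Zfp866, Garnl3, ENSMUSG00000073455, Asxl2, Apex1, Xaf1, Mtf2 and Tet2, with r from 0.84 to 0.89. None of these 10 is on the sterol lists. The mean itself moved little, from -0.032 in control ASO replicate 1 to 0.050 in C9orf72 ASO replicate 1 on the centred log2 scale. Single genes of the 6 ran from -0.14 to 0.23, so their differences partly cancel in the mean. The nearest sterol gene was Nsdhl (r = 0.65, rank 149), followed by Vldlr (r = 0.54, rank 390) and Lbr (r = 0.51, rank 449). Taken singly, Idi1 was most like Krr1, Cmbl and Serp1, Fdft1 like Akr1b3, Mrpl58 and Coq10a, and Sqle like Map4k5, Zfp62 and Blzf1. Lss was most like Pcid2, Srgap2 and ENSMUSG00000073455, Dhcr7 like Slco3a1, Dscaml1 and Kctd21, and Insig1 like Ube2k, Snx12 and Spock3. A highest r picked from so many genes over 9 libraries is a description and carries no test.

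Oligodendrocytes and astrocytes make most of this tissue's sterol, and in bulk RNA fewer cells of a type cannot be told apart from less RNA per cell. The mean of the oligodendrocyte list had its highest r with Dhcr7 among the 6 genes, 0.68 over 9 libraries (exact permutation p = 0.0422, adjusted over the 6 relations p = 0.253; rho = 0.43, exact permutation p = 0.250, adjusted p = 0.50). It was 0.74 without the 2 farthest libraries and 0.63 for deviations from the group means. Leaving out 1 library at a time gave 0 to 1 of the 6 relations that passed. The 1 was that of Dhcr7 without C9orf72 ASO replicate 3 (r = 0.86, n = 8, exact permutation p = 0.00278, adjusted p = 0.0167). Its p-value was adjusted over the 6 relations but not over the 9 removals. With Idi1 over all 9 libraries r was -0.52 (exact permutation p = 0.150, adjusted p = 0.450; rho = -0.67, exact permutation p = 0.0589, adjusted p = 0.177), and r was -0.70 without the 2 farthest libraries and -0.32 for deviations from the group means.

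Marker lists of other cells, for which no list was tested as a whole, differed in whether their summed levels overlapped between groups. The 7 microglia genes with a row summed to 176 to 192 RPKM after the C9orf72 ASO, 145 to 155 after the control ASO and 142 to 161 after saline; Aif1 had no row. The 8 endothelial and mural genes summed to 45.2 to 48.4 RPKM after the C9orf72 ASO, 47.9 to 67.7 after the control ASO and 69.2 to 90.3 after saline. The 9 astrocyte genes, 2313 to 2555 RPKM after the C9orf72 ASO, 2286 to 2370 after the control ASO and 2211 to 2514 after saline, overlapped between groups as a sum. Against the control ASO, 2 of these 9 genes were higher without overlap and 2 were lower, beside 10.1% and 11.8% of all genes. The 7 genes of oligodendrocyte precursors summed to 41.4 to 43.4 RPKM after the C9orf72 ASO, 45.4 to 46.6 after the control ASO and 40.4 to 50.8 after saline. The 8 neuron genes summed to 3012 to 3355 RPKM after the C9orf72 ASO, 3366 to 3516 after the control ASO and 3147 to 3375 after saline. For both lists the sums after the C9orf72 ASO lay below those after the control ASO, but single genes weigh heavily in them. Snap25 averaged 1596 RPKM after the C9orf72 ASO and 1773 after the control ASO, and the precursor gene Gpr17 8.31 and 11.5. Gene by gene, 1 of 8 neuron genes and 3 of 7 precursor genes did not overlap and were lower, beside 11.8% of all genes. The 6 blood genes with a row summed to 499.9 to 830.1 RPKM after the C9orf72 ASO, 481 to 1912 after the control ASO and 561 to 604 after saline. The contribution of these cells to the values of the sterol genes was not tested.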

How the data were processed

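Per the submitters' processing notes, cutadapt 1.2.1 and GSNAP were run and mm9 was the genome build. For the read counter, the annotation and any use of strand in counting, the sources used here give nothing. The deposited values were taken as RPKM, a unit read from the values because the header names none: in genes of up to 350 bases, RPKM times length fell within 0.1 of whole reads for 60.8% to 74.7% of values at 1 depth per library. Each deposited value under 0.5 stood at 0.1 (3.87% of values; none of the 6 genes).

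Symbols came from a table that matched 14321 of 14831 IDs. Differences were tested with limma 3.58.1 (R 4.3.3, empirical Bayes with trend and robust estimation) on log2(RPKM + 0.1), all 9 libraries fitted together, for 14430 genes that reached 0.5 RPKM in 3 or more libraries, with Benjamini-Hochberg adjustment over these. The pseudocount understates changes of low genes. The fit was tested on simulated data. Correlations used all 362880 orderings of the 9 libraries, two-sided (numpy 2.4.6). Members and lists were chosen with earlier results of these data known. Genes named were the 6, the target, the sterol enzyme, regulation and uptake lists, the 2 smallest p (or those past the threshold) of other lists and the patterns most alike. A few genes of these lists are counted in the totals but not reported here by name.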

Additional observations from a re-analysis of the deposited data

How the results depend on the processing

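In each of 19 alternatives (18 for the contrast with both control groups, which has no fit with only the groups compared), 0 of the 6 genes passed the threshold, and the lowest adjusted p of any of them was 0.167 (Dhcr7 against saline). Values raised to 0.5 RPKM at the floor were an alternative chosen after seeing the data. With the length trend removed, the median log2 fold change of the 6 was 0.09 against the control ASO (0.06 as reported), 0.04 against saline (0.00) and 0.08 against both control groups (0.04); median log ratio scaling put it at 0.03 against saline. Leaving out 1 library gave medians of 0.01 to 0.08 against the control ASO, -0.01 to 0.04 against saline and -0.01 to 0.06 against both. Lss, near 0, changed sign against both control groups with median log ratio scaling (0.02), quantile normalization (0.02) or the length trend removed (0.05), and ran from -0.08 to 0.04 with 1 library left out, and from -0.03 to 0.08 against the control ASO.

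The count over all genes against the control ASO was 16 with no filter and 19 without trend and robust estimation (10 as reported), and 7 to 27 with 1 library left out. Against saline it was 4 with only the groups compared, 23 with the length trend removed and 4 to 54 with 1 library left out. For control ASO against saline it was 5 with no filter, 0 with a mean of at least 1 RPKM, 9 without trend and robust estimation, 2 with the length trend removed and 0 to 2 with 1 library left out. Against both control groups it was 39 with a mean of at least 1 RPKM and 7 to 139 with 1 library left out; the highest counts, 27, 54 and 139, came without C9orf72 ASO replicate 3. The cause was not tested. Pairs of members that passed numbered 0 to 2, and relations with the oligodendrocyte list 0 to 1, with 1 library left out. No paired analysis was possible because the labels give no batch, litter or pairing of libraries between groups.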

Other observations

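Genes that export, store or oxidise cholesterol had 0 of 9 members past the threshold in limma in any comparison. At an unadjusted p under 0.05 there were 2 against the control ASO (14.1% of all genes) and 2 against saline (14.0%). There were 2 against both control groups (16.7%) and 1 for control ASO against saline (5.35%). Cyp27a1, the mitochondrial sterol hydroxylase, had 25.9, 20.2 and 22.2 RPKM after the C9orf72 ASO, 17.9, 17.4 and 15.8 after the control ASO and 23.5, 19.4 and 21.3 after saline. The control ASO libraries lay below all 6 others. Of all genes, 10.1% had the C9orf72 ASO libraries above those of the control ASO, and 7.15% had the control ASO libraries below saline. The share with both was not counted. Log2 fold changes of Cyp27a1 were 0.41 for C9orf72 ASO against control ASO (SE 0.10, unadjusted p = 0.00116, adjusted p = 0.190, limma) and -0.33 for control ASO against saline (SE 0.10, unadjusted p = 0.00592, adjusted p = 0.794). Cyp27a1 and Soat1 were named for the smallest p of this list against the control ASO, so they do not stand for it. Soat1, which esterifies cholesterol for storage, had 8.52, 9.69 and 8.15 RPKM after the C9orf72 ASO, 10.3, 10.9 and 10.7 after the control ASO and 7.98, 10.5 and 9.45 after saline. Its log2 fold change against the control ASO was -0.28 (SE 0.10, adjusted p = 0.273), and -0.08 against saline (SE 0.10, adjusted p = 0.756).

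Fatty acid genes driven by Srebf1 had 0 of 12 members past the threshold in limma in any comparison. At an unadjusted p under 0.05 there were 0 as well, where 5.35% to 16.7% of all genes were, depending on the comparison. Against the control ASO 9 of 12 were lower, as were 7813 of 14430 genes tested, with a median log2 fold change of -0.08. Scd1, a desaturase, had -0.11 (SE 0.06, adjusted p = 0.440) and Fasn, the fatty acid synthase, -0.16 (SE 0.09, adjusted p = 0.457). Of the 13 oligodendrocyte genes 8 were higher and 5 lower against the control ASO, with a median log2 fold change of 0.03. Of the 7 precursor genes 1 was higher and 6 lower, with a median of -0.15. In limma 0 of either list passed, with 2 of each at an unadjusted p under 0.05, beside 14.1% of all genes. The genes named from these lists are those with the smallest p, so they do not stand for the lists. The myelin enzyme Cnp had 253, 282 and 325 RPKM after the C9orf72 ASO, 334, 351 and 373 after the control ASO and 379, 347 and 313 after saline. Its log2 fold change against the control ASO was -0.31 (SE 0.10, adjusted p = 0.257). The oligodendrocyte differentiation factor Tcf7l2, at 1.80 to 2.18 RPKM after the C9orf72 ASO, had 2.27 to 2.85 RPKM after the control ASO (log2 fold change -0.36, SE 0.11, adjusted p = 0.247). Gpr17, a receptor of precursors on the way to myelination, had 7.51, 8.55 and 8.88 RPKM after the C9orf72 ASO, 11.6, 11.7 and 11.2 after the control ASO and 13.0, 12.5 and 7.99 after saline (log2 fold change -0.47 for C9orf72 ASO against control ASO, SE 0.15, adjusted p = 0.254). For Myrf, the factor that switches on myelin genes, the same difference was -0.19 on the log2 scale, with an SE of 0.08 and an adjusted p of 0.336.

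Of the microglia genes, C1qb had 35.3, 35.0 and 36.0 RPKM after the C9orf72 ASO, 24.9, 26.7 and 24.8 after the control ASO and 30.4, 23.3 and 25.2 after saline. Its log2 difference from the control ASO was 0.48 (adjusted p = 0.0905) and from saline 0.44 (adjusted p = 0.0929). With both control groups as the reference it rose by 0.46 and passed the threshold (SE 0.07, adjusted p = 0.0402). Of the vessel genes, log2 differences from the control ASO were -0.39 for Flt1 (adjusted p = 0.268, limma) and -0.46 for Rgs5 (adjusted p = 0.287). From saline they were -0.65 for Flt1 (adjusted p = 0.113) and -0.87 for Rgs5 (adjusted p = 0.0996). For control ASO against saline they were -0.26 for Flt1 (adjusted p = 0.794) and -0.41 for Rgs5 (adjusted p = 0.794). S100a9, a neutrophil gene, was at the lowest reported value of 0.1 RPKM in each C9orf72 ASO and saline library, against 3.68, 2.48 and 1.52 RPKM in the control ASO libraries, and it passed the test against the control ASO (adjusted p = 0.00115).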
